A study of Mus musculus with 6 samples.

Results

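The 8 genes described here belong to the complement system and were measured in mouse RPE/choroid, the retinal pigment epithelium together with the vascular layer beneath it. They are the 3 chains of the recognition molecule C1q (C1qa, C1qb and C1qc), the protease C1ra, the convertase components C4b and C2, and the receptors C3ar1 and C5ar1. Members were chosen by symbol, for their role in the classical pathway or as receptors of complement peptides, from the 33924 genes of the deposited table. All 8 were listed once and all 8 were among the 18636 genes tested.

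Total RNA was compared between 3 young and 3 aged wild-type C57BL/6J mice, with 2 eyes per library, 1 numbered mouse per title and ribosomal RNA removed without poly(A) selection. The titles of the samples give 1 to 2 months for the young group and 20 to 24 months for the aged group, while a second label of the aged mice begins at 22 months. The text of the study places the young mice slightly later, so their age is uncertain, and it names both sexes where the labels give male. No treatment or transgene is named for either group, and the pigmented layer was scraped from the sclera, so cells of the choroid and its blood vessels were included. Each gene has 1 mean over all 6 libraries, called baseMean and given in normalized counts, and 1 log2 fold change with a standard error (SE). Values per mouse and the depth of each library were not analysed here, so whether the mice of the groups overlap cannot be described and the SE is the only measure of replicate error. Group means given below were worked out from baseMean and fold change and carry no error of their own. The file does not name the direction of its fold changes. It was set from the study's split of higher and lower genes, so every direction below rests on that reading.

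Complement is a cascade of plasma and tissue proteins that marks surfaces for removal. In the classical pathway C1q binds antibody complexes, apoptotic cells or debris, its protease C1r activates C1s, C1s cuts C4 and C2, and the fragments form the enzyme that cleaves C3. Cleavage of C3 and C5 releases small peptides, the anaphylatoxins C3a and C5a, which bind the receptors encoded by C3ar1 and C5ar1 on myeloid and other cells. Tissue macrophages and microglia are a main source of C1q, and complement in RPE and choroid has long been studied in connection with macular degeneration.

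All 8 genes were expressed at a higher level in aged than in young RPE/choroid. Log2 fold changes ran from 0.77 for C5ar1 to 2.23 for C3ar1, with a median of 1.88 beside -0.01 over all genes tested. By the adjusted p of the Wald test, 8 of 8 rose and 0 fell, with the same counts at an unadjusted p under 0.05. Over all genes tested, 11.3% were called higher (2100) and 9.92% lower (1849). Centring the fold changes on abundant genes, whose median was 0.06, turned that split into 1650 higher and 2289 lower. Apart from C2 and C5ar1, the members were also called with a rise of 1 or more on the log2 scale, which is 6 of 8 against 3.65% of the genes tested. Summed over the members, the derived level went from 8403 normalized counts in young mice to 29372 in aged mice, a ratio of 3.50. In RNA from whole tissue, more cells of a type and more RNA per cell cannot be told apart. The Wald score was also referred to a t distribution with 4 degrees of freedom, counted from the 6 libraries alone and stricter than the test used. Under it 4 of the 8 calls remained, those of C1qb, C1qc, C4b and C3ar1. Over all genes tested it left 137 calls, against 3949.

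**Figure D1:**
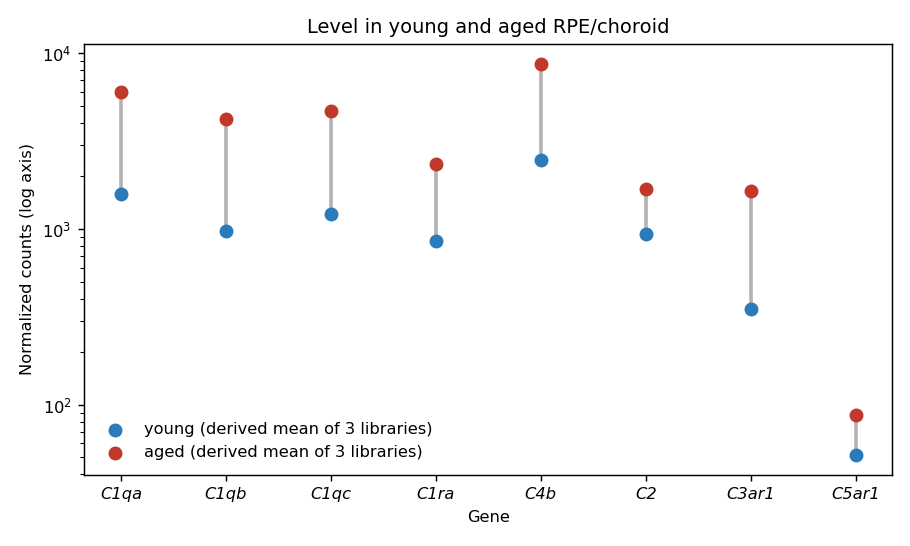
Derived mean level of each member in young (blue) and aged (red) RPE/choroid, in normalized counts on a log axis, with 1 pair of points per gene and 3 libraries behind each point. The aged point lies above the young point for all 8 genes, and C5ar1, at 51.5 and 87.5, stands far below the others; no error is drawn because no value per library was used.

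C1q, the molecule that starts the pathway, is built from equal numbers of A, B and C chains, each with a collagen-like stalk and a globular head. Its 3 genes lie side by side on the minus strand of chromosome 4 (GRCm38), C1qb at 136880129 to 136886187, C1qc at 136889804 to 136893065 and C1qa at 136895917 to 136898803. C1qa had a baseMean of 3779 and a derived level of 1576 normalized counts in young and 5981 in aged mice. That is a 3.79-fold rise (95% interval 2.96 to 4.86), or 1.92 on the log2 scale (SE 0.18, adjusted p 5.72e-24). C1qb went from 970 to 4208 normalized counts, a 4.34-fold rise (3.40 to 5.53; log2 fold change 2.12, SE 0.18, adjusted p 5.80e-30). C1qc went from 1218 to 4711, a 3.87-fold rise (3.16 to 4.74; log2 fold change 1.95, SE 0.15, adjusted p 1.29e-36). The widest difference among the chains was that of C1qb over C1qa, 0.19 on the log2 scale, with an interval of -0.52 to 0.90 at the largest SE it can have.

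The derived shares of the chains in the C1q transcripts moved by a few percentage points between the ages and carry no error of their own. The intervals for differences between the chains' fold changes include 0, so this shift cannot be told from none. C1qa held 41.9% of the summed derived level of the 3 genes in young mice and 40.1% in aged mice. C1qb held 25.8% and 28.2%, and C1qc 32.4% and 31.6%. Scaled by the longest coding transcript, the level over the 6 libraries was 3633 normalized counts per kilobase for C1qa, 2380 for C1qb and 2464 for C1qc. Scaled by all annotated exon bases, C1qc stood at 1535, below C1qb at 2380, so the order of C1qb and C1qc depends on the length used. No 31-base word of the C1q transcripts occurs in the transcripts of another gene, so reads of the chains are not divided with a paralog. The SEs of C1qa and C1qb were larger than those of 91.2% and 90.3% of the genes tested within a factor of 2 of their baseMean, and that of C1qc was larger than 69.7%.

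The sequence before the RefSeq start site (GRCm38.p6) is given for C1qb, C1qc and C3ar1, the members in which a motif searched was found, without bases that annotated exons cover. The stretches, on the minus strand and written 5′ to 3′, are chr4:136886201-136886450 for C1qb, chr4:136893066-136893164 for C1qc and chr6:122856162-122856407 for C3ar1. Capitals mark matches on either strand to GAGGAA, a core bound by the myeloid factor PU.1, or to TGANTCA, the AP-1 motif.
C1qb: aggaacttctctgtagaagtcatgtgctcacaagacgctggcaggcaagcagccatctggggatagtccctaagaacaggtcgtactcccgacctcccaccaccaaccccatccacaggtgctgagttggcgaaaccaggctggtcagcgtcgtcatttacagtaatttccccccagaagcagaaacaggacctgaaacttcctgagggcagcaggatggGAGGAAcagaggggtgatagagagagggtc
C1qc: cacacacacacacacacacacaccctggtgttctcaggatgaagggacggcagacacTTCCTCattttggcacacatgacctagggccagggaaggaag
C3ar1: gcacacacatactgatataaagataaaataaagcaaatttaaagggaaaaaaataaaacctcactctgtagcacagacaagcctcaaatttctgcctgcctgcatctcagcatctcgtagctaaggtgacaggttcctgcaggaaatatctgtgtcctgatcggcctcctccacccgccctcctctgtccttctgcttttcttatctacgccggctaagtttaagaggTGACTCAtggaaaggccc

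GAGGAA was found 30 bases before the start of C1qb, and its complement TTCCTC 193 bases before that of C1qc. TGACTCA was found 22 bases before the start of C3ar1. Promoters were matched for 5 of the 8 members (C1qb, C1qc, C1ra, C3ar1 and C5ar1), and not for C1qa, C2 and C4b. In the 250 bases before the start, GAGGAA was present in 2 of the 5 and in 23.3% of all 32851 promoters, and TGANTCA in 1 of the 5 and in 6.75%. Matches to TTGCNNAA (C/EBP) and to the interferon-stimulated response element (GAAA followed after any 2 bases by GAAA) were found in 0 of the 5, against 9.56% and 2.98% of all promoters. None of these motifs overlapped another in the stretches shown. A match of letters is a description and not a measured site.

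C1ra encodes C1r, the protease that activates C1s within the C1 complex. The gene lies on the plus strand of chromosome 6 at 124512405 to 124523443. Its derived level rose from 847 to 2336 normalized counts, 2.76-fold (95% interval 2.29 to 3.32; log2 fold change 1.46, SE 0.14, adjusted p 1.48e-24). Its partner C1s, listed apart from the members and encoded 6902 bases away, rose by almost the same amount, from 1770 to 4807 normalized counts (log2 fold change 1.44, SE 0.14, adjusted p 1.44e-23). Only 40.7% of the 31-base words of C1ra occur in no other gene, because 56.9% are shared with its copy C1rb. C1rb was listed at a baseMean of 1.87, below the limit for an adjusted p, so nearly all reads of the pair were assigned to C1ra. Shared reads were divided by the estimate of the quantification tool (Sailfish), so the split between the copies is an estimate.

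C4 and C2 supply the fragments of the classical C3 convertase. C4b lies on the minus strand of chromosome 17 (34728380 to 34743882) and was the most abundant member, with a baseMean of 5590, which placed it at position 421 among the genes tested. Its derived level rose from 2457 to 8724 normalized counts, 3.55-fold (95% interval 3.00 to 4.21; log2 fold change 1.83, SE 0.13, adjusted p 8.00e-46). Per kilobase of transcript it stood at 1039, below each of the C1q chains. C4a, the neighbouring copy, was listed at a baseMean of 18.5 and differed between the ages by 0.25 on the log2 scale (SE 0.39, adjusted p 0.707). The copies share 48.3% of the words of C4b, so the small signal of C4a is uncertain.

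C2, on chromosome 17 at 34862604 to 34898265, changed less. It went from 935 to 1690 normalized counts, a 1.81-fold rise (95% interval 1.45 to 2.25; log2 fold change 0.85, SE 0.16, adjusted p 2.39e-06). C2 lies 86 bases from Cfb, its counterpart in the alternative pathway, and an annotated read-through gene (Gm20547) overlaps parts of both. Of the words of C2, 40.2% are shared with Gm20547, which was listed at a baseMean of 0. Zbtb12 overlaps C2 on the opposite strand and had a baseMean of 88.4 and a difference of 0.42 on the log2 scale (SE 0.23, adjusted p 0.200). Whether the strand was used in counting is not stated.

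The receptors stood at the ends of the range. C3ar1, which encodes the receptor of C3a, had the largest rise of the members and lies on chromosome 6 at 122847138 to 122856161. It went from 348 to 1635 normalized counts, 4.69-fold (95% interval 3.92 to 5.62; log2 fold change 2.23, SE 0.13, adjusted p 1.84e-60). Of the genes tested, 0.714% had a larger rise. C5ar1, the receptor of C5a on chromosome 7 at 16246743 to 16259540, was the least abundant member, with a baseMean of 69.5 or 27.4 per kilobase of transcript, against 991 and 230.3 for C3ar1. It went from 51.5 to 87.5 normalized counts, 1.70-fold (95% interval 1.14 to 2.54; log2 fold change 0.77, SE 0.30, adjusted p 0.0456). The deposited SEs fall near a baseMean of 0, as they do in fold changes shrunk towards 0, although shrinkage is not stated. If it was applied, the value of C5ar1 can be understated more than those of the other members. Its place in an order of fold changes can then be understated with it. This call lay close to the threshold and was lost with no filter on low genes (adjusted p 0.0640), after centring on abundant genes (0.0722), under the Benjamini-Yekutieli adjustment (0.475) and under a threshold of 0.01.

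**Figure D2:**
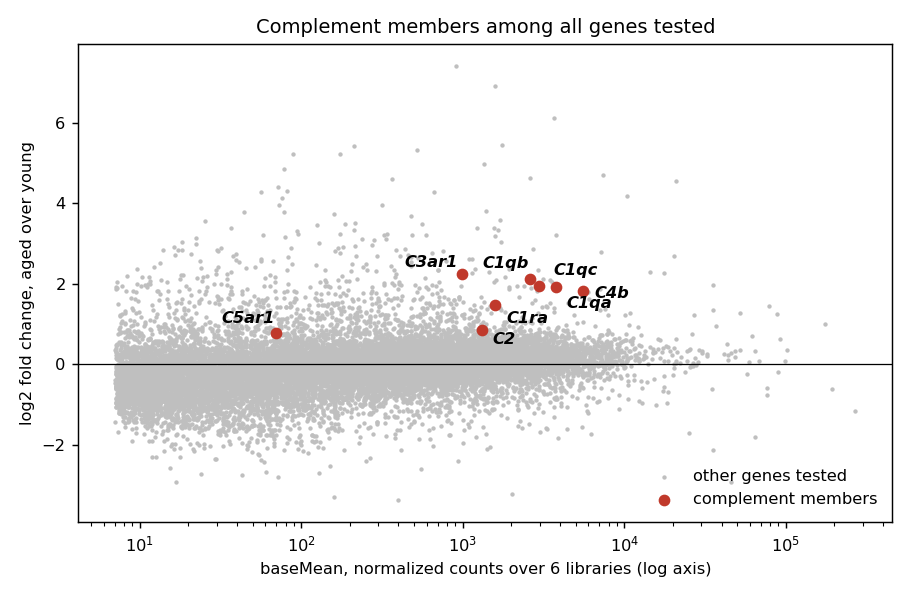
Log2 fold change of aged over young against baseMean (normalized counts, log axis) for each gene tested (grey), with the 8 members in red. C1qa, C1qb, C1qc, C4b, C3ar1, C1ra and C2 lie at a baseMean of 991 or more, and C5ar1 at 69.5; all 8 lie above 0.

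Ordered by log2 fold change, the members ran C3ar1 (2.23), C1qb (2.12), C1qc (1.95), C1qa (1.92), C4b (1.83), C1ra (1.46), C2 (0.85) and C5ar1 (0.77). The estimates come from the same libraries and their covariance is unknown, so each difference was set against the largest SE it can have, the sum of both SEs. Of the 7 pairs of neighbours in this order, 1 differed beyond the 95% bound from that SE. It was C1ra over C2, with a difference of 0.61 (95% interval 0.03 to 1.19). Of all 28 pairs, 13 differed by this measure. C3ar1 exceeded C5ar1 by 1.46 (0.63 to 2.30), a gap that any shrinkage of C5ar1 can widen, and C4b exceeded C2 by 0.97 (0.42 to 1.53). Among the C1q chains, C4b and C3ar1 no pair differed beyond it; C3ar1 over C4b, the widest, gave 0.40 with an interval of -0.10 to 0.91.

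The other genes of the classical and lectin pathways were followed as a list of 18. Of these, 10 were tested, 5 rose and 0 fell, beside 11.3% higher and 9.92% lower over all genes tested. At an unadjusted p under 0.05 there were 5 higher genes and 1 lower gene. The median log2 fold change of the 10 was 0.50. C3, the protein on which the pathways converge and the source of C3a, had the largest rise, from 295 to 2996 normalized counts (log2 fold change 3.34, SE 0.14, adjusted p 1.06e-116). C5ar2, listed under its older symbol Gpr77 and encoding the second receptor of C5a, lies 2589 bases from C5ar1 and rose by 1.07 on the log2 scale (SE 0.28, adjusted p 0.00161). Serping1, the inhibitor of C1r and C1s, rose by 0.52 (SE 0.12, adjusted p 0.000246) on the log2 scale, beside 1.46 and 1.44 for the proteases C1ra and C1s that it blocks. Colec12, a scavenger receptor with a collagen stalk and a lectin head, rose by 1.37 (SE 0.16, adjusted p 9.39e-16).

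Among the tested genes listed for lectin recognition or as lectin pathway proteases, only the scavenger receptor Colec12 passed the test. Masp1 and Masp2, the proteases of the pathway, had log2 fold changes of -0.14 (SE 0.30, adjusted p 0.795) and -0.60 (SE 0.44, adjusted p 0.362). Fcna, a ficolin, had -0.87 (SE 0.38, adjusted p 0.0915), and Colec11 had 0.48 (SE 0.40, adjusted p 0.429). Mannose-binding lectins and the other members not tested stood at a baseMean of 3.78 or less. That value was for Hc, which encodes C5, the precursor of C5a. Mbl1 and Fcnb were listed at 0, and C1s2 was not among the listed symbols.

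Of 23 genes of the alternative and terminal pathways, regulators and complement receptors, 18 were tested, 7 were higher and 3 were lower. Over all genes tested, 11.3% were higher and 9.92% lower. The median log2 fold change of the 18 was 0.14. In the alternative pathway, Cfb rose by 0.88 on the log2 scale (SE 0.33, adjusted p 0.0352) and Cfi rose by 1.61 (SE 0.41, adjusted p 0.00113). The call of Cfb was lost after centring (adjusted p 0.0543). Cfd and Cfp had -0.33 (SE 0.37, adjusted p 0.577) and -0.14 (SE 0.21, adjusted p 0.682). Of the terminal genes, C7 and C8g were tested, with -0.36 (SE 0.37, adjusted p 0.541) and -0.13 (SE 0.31, adjusted p 0.817), and C6, C8a, C8b and C9 were too low for an adjusted p.

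Regulators on the cell surface or in fluid had calls in both directions. Cd46 fell by 1.47 (SE 0.33, adjusted p 0.000115) and Susd4 by 0.81 (SE 0.30, adjusted p 0.0388) on the log2 scale, whereas Csmd1 rose by 0.72 (SE 0.24, adjusted p 0.0158) and Cd59a by 0.35 (SE 0.13, adjusted p 0.0456). The calls of Cd59a and Susd4 were lost with no filter on low genes (adjusted p 0.0639 and 0.0545), and that of Cd59a after centring (0.118). Cd55, Cr1l, Clu and Vtn did not pass, with log2 fold changes of -0.21, 0.10, 0.19 and 0.23. Of the complement receptors, the integrin chains Itgax, Itgb2 and Itgam rose by 5.43, 3.58 and 1.37 (SE 0.18, 0.14 and 0.21), and Cr2, a receptor of B cells, fell by 1.58 (SE 0.35, adjusted p 9.07e-05). Vsig4, a complement receptor of resident macrophages, was listed at a baseMean of 3.16 and was not tested.

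**Figure D3:**
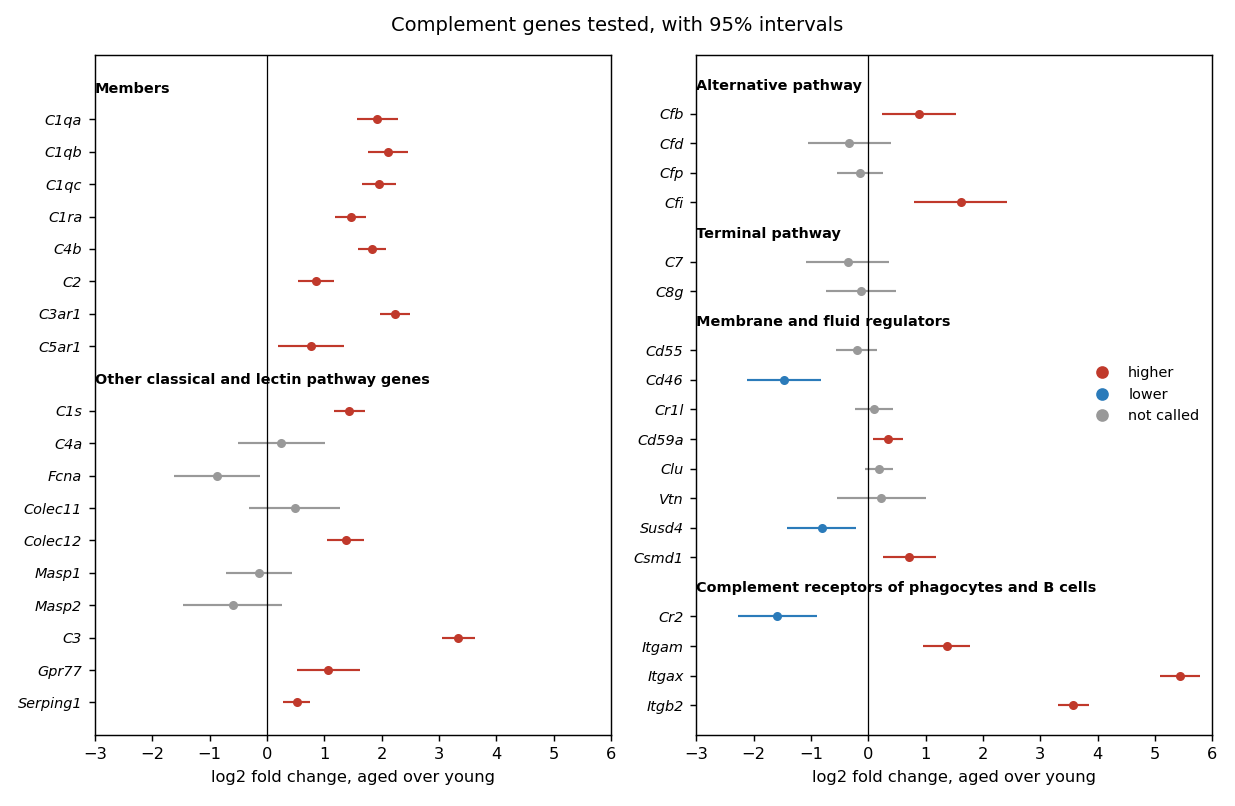
Log2 fold change of aged over young with its 95% interval for the 8 members and the 10 other classical and lectin pathway genes tested (left) and for the 18 alternative, terminal, regulator and receptor genes tested (right), coloured by call at an adjusted p under 0.05. The members all lie to the right of 0, while the right panel holds 7 higher and 3 lower genes. Over all genes tested, 11.3% were higher and 9.92% lower.

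Genes that share the globular domain of C1q were followed as a list of 18 relatives. Of these, 15 were tested, 0 rose and 3 fell, beside 11.3% higher and 9.92% lower over all genes tested. At an unadjusted p under 0.05 there were 0 higher and 4 lower genes. Their median log2 fold change was -0.21. The largest fall was that of C1qtnf3, an adipokine, whose derived level went from 109 to 27.9 normalized counts (adjusted p 1.82e-07). The other 2, named after their values were seen, were C1qtnf6 at -1.63 (SE 0.23) and Cbln3 at -1.56 (SE 0.42).

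Neighbouring genes were taken as the 2 nearest protein-coding genes on each side of each member, leaving out other members and genes that overlap a member. Of 24 such genes, 22 were tested, 3 were higher and 2 were lower, shares near the 11.3% and 9.92% over all genes tested. The higher ones were C1s, Cfb and C5ar2. Tnxb, 8565 bases from C4b, had -0.51 (SE 0.17, adjusted p 0.0164), and Slc44a4, 16201 bases from C2, had -1.30 (SE 0.45, adjusted p 0.0224). Around the C1q cluster, Ephb2, Lactbl1, Epha8 and Zbtb40 did not pass, with log2 fold changes between -0.25 and 0.32. Foxj2, which ends 1772 bases from C3ar1, had 0.17 (SE 0.18, adjusted p 0.554).

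Markers of cells that the tissue could hold were followed beside the members. Of 15 macrophage markers, all tested, 11 were higher and 2 were lower, beside 11.3% higher and 9.92% lower over all genes tested. Their median log2 fold change was 1.41, and their summed derived level went from 12272 to 48657 normalized counts. Mpeg1, the most abundant, had 4.18 (SE 0.15), and Csf1r, the receptor that macrophages need to survive, had 0.37 (SE 0.13, adjusted p 0.0276). Cx3cr1 and Mrc1 did not pass, at 0.44 (SE 0.19, adjusted p 0.0816) and 0.15 (SE 0.14, adjusted p 0.512). The markers that fell, named after their values were seen, were Cd163 at -2.34 (SE 0.24) and Lyve1 at -2.01 (SE 0.27), both known from resident perivascular macrophages. The part of macrophage number in the rise of the members was not tested.

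Each member was also set against each macrophage marker, with the sum of both SEs as the largest SE of the difference. C1qa, C1qc and C4b each exceeded 6 of the 15 markers, fell short of 5 and did not differ from 4 by this measure, and C1qb exceeded 7, fell short of 5 and did not differ from 3. For C3ar1 the counts were 8, 5 and 2. C1ra exceeded 6 and fell short of 6. C2 and C5ar1 exceeded 3 and 2 and fell short of 7 each. The C1q chains, C4b and C3ar1 lay nearest to Ptprc (1.94, SE 0.12), the pan-leukocyte marker, and to Adgre1, listed as Emr1 (2.12, SE 0.16). All of these members lay above Csf1r and below Cd68 (3.37, SE 0.14).

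For markers of other blood-derived cells, fold changes are given without a comparison with each member. Their calls stand beside 11.3% higher and 9.92% lower over all genes tested. Of 10 neutrophil markers 6 were tested and 3 rose, and their summed derived level went from 194 to 580 normalized counts. Csf3r had 1.73 (SE 0.24) and S100a9 had 1.47 (SE 0.31), while Camp, Retnlg and Cxcr2 did not pass, at 0.83, 0.56 and 0.66. The markers not tested, Ly6g, Elane, Mpo and Ngp, were at 0.30, 0.35, 0 and 2.92 in baseMean. Of 8 mast cell markers 7 rose, with a median of 2.38. Cma1 had 2.44 (SE 0.21), and Kit, which melanocytes also express, did not pass at -0.33 (SE 0.17, adjusted p 0.143). T and NK cell markers had a median of 2.10, with 5 of 7 higher, among them Cd4 at 2.41 (SE 0.23) and Cd3g at 2.28 (SE 0.36). Of the B and plasma cell markers 1 of 5 was higher, the immunoglobulin chain Igj, at 2.35 (SE 0.26), and Cd79b had 0.47 (SE 0.25, adjusted p 0.181). The part of these cells in the members' rise was not tested.

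Markers of the resident cells of the layer are given beside the 11.3% of all genes tested that were called higher and the 9.92% called lower. Of the RPE markers 2 of 9 were higher, with a median of 0.23. At an unadjusted p under 0.05 there were 4 higher and 0 lower RPE markers. The abundant Ttr and Rgr had 0.08 (SE 0.18, adjusted p 0.810) and 0.63 (SE 0.18, adjusted p 0.00416). RPE markers were present at baseMeans of up to 99322 for Ttr, so the labelled tissue was represented. Fibroblast markers had a median of 0.14, with 2 of 8 higher and 3 lower, among them Col1a2 at -1.80 (SE 0.15) and Col1a1 at -2.91 (SE 0.17). Endothelial markers had -0.17, with 1 of 7 lower, and Kdr and Emcn had 0.14 and -0.19. Rod photoreceptor markers had 0.17 with 0 of 7 called, also at an unadjusted p under 0.05, and SEs as large as 0.43. Sag stood at a baseMean of 13165 and Gnat1 at 12334, so retinal RNA was present in the preparation. Hepatocyte genes, markers of the main source of plasma complement, were at a baseMean of 2.07 or less.

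**Figure D4:**
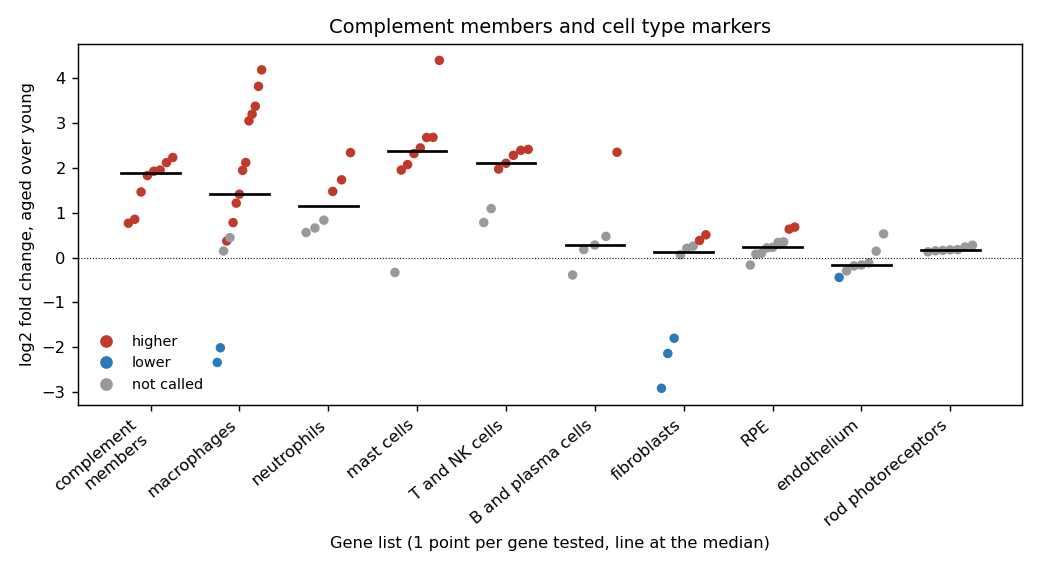
Log2 fold change of aged over young for each gene tested among the 8 members and in 9 marker lists, with a line at each median and colours for the call at an adjusted p under 0.05. Members lie between 0.77 and 2.23, inside the spans of the macrophage (-2.34 to 4.18), neutrophil (0.56 to 2.34), B and plasma cell (-0.39 to 2.35) and mast cell markers, and above the RPE, endothelial and rod markers, whose highest value is 0.68.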

How the data were processed

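Total RNA of RPE/choroid from 3 young and 3 aged mice was sequenced. Reads were trimmed by the authors (BBDuk), mapped with STAR against Ensembl GRCm38 (release 82) and quantified with Sailfish, then scaled to total counts and tested in DESeq2. Reads shared by several genes were divided by Sailfish's estimate at default settings. The deposited table holds per gene a baseMean, a normalized signal averaged over the 6 libraries, and columns of that comparison: a log2 fold change, its SE, a Wald score, a p-value and an adjusted p deposited by the authors. It has 0 columns of values per library, so depth per sample and precision beyond the SE are unknown here. Over 13978 tested genes, baseMean rose with transcript length (slope 0.73 of log2 on log2), as counts do.

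The sign was turned so that positive means higher in aged mice. From the deposited fold changes and SEs, the Wald p and its Benjamini-Hochberg adjustment over the 18636 genes with a deposited adjusted p were recomputed (scipy 1.17.1, Python 3.11.15) and lay within 0.486% of the deposited values, with 0 calls changed. The code was tested on simulated data. A gene was called at an adjusted p under 0.05. Intervals are normal 95% intervals from the SE. The titles name separate mice. The deposited SE falls as baseMean nears 0 (Hc at 3.78, SE 0.45, and Mbl2 at 0.15, SE 0.17), as it does in fold changes shrunk towards 0. Shrinkage is not stated and would understate genes of low counts. Positions, neighbours and words are from GENCODE M21 and promoters from RefSeq, both GRCm38.

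Members and lists were chosen with earlier results of these data known. Named are all members, every tested gene of both pathway lists, called neighbours, the called C1q-domain relative with the largest change in each direction (none was called higher), the 2 most abundant markers per list and uncalled macrophage and neutrophil markers; others are values beside these, named after seeing them. Alternatives changed the filter, threshold, centring, reference distribution and adjustment. No gene was named for a pattern like the members', because 2 groups without values per library give no profile. Some genes of the lists are not reported here and were left out of the lists' counts. The comparison of pairs was chosen after seeing the data.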

Additional observations from a re-analysis of the deposited data

How the results depend on the processing

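No paired analysis was possible because single libraries have no column of values here. For that reason the fits without 1 library, the replicate block, edgeR with its normalizations and a count model were not run. All alternatives reuse the deposited fold changes, and centring shifts each by the same 0.06, so they do not test direction. Among the 8 members the count of 8 calls was within a factor of 1.5 except under the t distribution with 4 degrees of freedom, which left 4. That reference also gave adjusted p-values of 0.0550 for C1qa, 0.0536 for C1ra, 0.144 for C2 and 0.292 for C5ar1, and it left 137 calls over all genes tested, 1 among the other classical and lectin pathway genes, 2 among alternative, terminal and regulator genes, 12 among markers, and 0 among C1q-domain relatives and among neighbours. C5ar1 also lost its call with no filter on low genes (0.0640), after centring (0.0722), under Benjamini-Yekutieli (0.475), and, at its adjusted p of 0.0456, under a threshold of 0.01 and a log2 fold change of at least 1. C2 lost its call under that minimum fold (adjusted p 2.39e-06). Against 3949 calls over all genes tested there were 2520 under a threshold of 0.01, 1542 under the minimum fold and 2145 under Benjamini-Yekutieli. The 10 calls of alternative, terminal and regulator genes became 6 under each of these, and the 5 of neighbours became 2, 3 and 2 in that order, and 3 with a baseMean of at least 50. All of these alternatives are stricter by construction, except centring, which shifts the fold changes, and the filters, which change how many genes enter the adjustment. Of 28 pathway genes followed singly, only the 5 and the 10 called in the 2 lists had a call to lose. Of these called genes, 12 lost their call under the t distribution and 5 under the minimum fold. A threshold of 0.01 and Benjamini-Yekutieli each took 4 calls, and centring and no filter each took 2. Centring turned 2100 higher and 1849 lower calls into 1650 and 2289. Without values per library, the influence of 1 mouse on any value is unknown here.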
